A study of Homo sapiens with 6 samples.

Results

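The genes described here are 9 transcripts used as markers of monocytes and macrophages: CD14, CD86, CD68, CD163, MRC1, VCAN, FCN1, MNDA and CD300E. They were chosen by gene symbol, and all 9 were found among the 58735 genes of the deposited count table. Counts came from mRNA sequencing of MOLM-13, an established human cell line grown from an acute myeloid leukaemia, with the gene fusion KMT2A-MLLT3, a duplicated stretch in FLT3 (FLT3-ITD) and monocyte-like traits. The line is labelled wild type, and all cultures were grown in RPMI-1640 with 20% fetal bovine serum. Control cultures were untreated (n = 3). Treated cultures received 3.5 nM of 8p (n = 3), a synthetic compound described as inhibiting RET and CDK kinases and labelled as an inhibitor of RET and CDK8, with a stated IC50 of 7 nM in these cells. Both groups were incubated for 48 hours, and whether controls received the solvent is not stated.

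Monocytes are circulating phagocytes that can become macrophages or dendritic-like cells in tissue, and the 9 genes mark different steps of that path. CD14 is the coreceptor that hands lipopolysaccharide to TLR4, and CD300E is an activating receptor of the CD300 family found on monocytes. CD86 is a B7 ligand through which antigen-presenting cells costimulate T cells. CD163, which takes up haemoglobin bound to haptoglobin, and MRC1, the mannose receptor CD206, are endocytic receptors typical of tissue macrophages. CD68 is a heavily glycosylated relative of the LAMP proteins that sits mainly in lysosomes and endosomes. The remaining genes are monocyte markers whose products are not membrane receptors: VCAN encodes versican, a hyaluronan-binding proteoglycan of the extracellular matrix, FCN1 encodes M-ficolin, a secreted recognition lectin of the complement system, and MNDA encodes a nuclear protein of the PYHIN family. The name surface markers therefore fits only some of the 9.

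Control libraries held 18834611 to 23485628 counts and 8p libraries 14972069 to 16210861, so low counts are less precise with 8p. Mitochondrially encoded genes took 1.64% to 1.91% of control counts and 6.42% to 10.004% of 8p counts. The myeloid transcription factor gene CEBPA was at 164 ± 4.07 CPM (counts scaled to library size) in controls and 438 ± 45.2 CPM with 8p (SD, n = 3), and PTPRC, which encodes the leukocyte protein CD45, at 106 ± 2.80 and 178 ± 5.26 CPM. All 8 genes of a list for this leukaemia line passed the filter on low counts, of which 4 rose, 2 fell and 2 were not called. Of all genes tested 37.9% were called higher and 36.9% lower, 74.7% in either direction, so this count says little about the list. Those that fell, named after their values were seen, were the myeloid surface protein gene CD33 (98.3 ± 6.56 to 69.5 ± 5.71 CPM, log2 fold change −0.50) and the homeobox gene HOXA9 (−0.42). Of the genes of the stated targets and their close relative, RET rose (log2 fold change 1.48, SE 0.07), CDK19 rose (1.49, SE 0.07) and CDK8 fell (−0.40, SE 0.09), the last not called with upper quartile scaling. CPM values here are scaled with the TMM factors of edgeR. Since these are bulk samples, fewer cells of a type and less RNA per cell cannot be told apart. The labels call the replicates independent biological replicates.

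The 9 genes lie on 7 chromosomes, and their exons hardly overlap other genes, with 1 exception. CD14 (ENSG00000170458; GRCh38 chr5:140631728-140633701, minus strand), CD86 (ENSG00000114013; chr3:122055366-122121139, plus strand), FCN1 (ENSG00000085265; chr9:134905890-134917963, minus strand), MNDA (ENSG00000163563; chr1:158831317-158849506, plus strand), MRC1 (ENSG00000260314; chr10:17809344-17911170, plus strand) and CD300E (ENSG00000186407; chr17:74609887-74623738, minus strand) share no exon base with another annotated gene. VCAN (ENSG00000038427; chr5:83471465-83582303, plus strand) shares 3.05% of its exon bases with VCAN-AS1 on the other strand, which held 5 counts in all. CD163 (ENSG00000177575; chr12:7470813-7503893, minus strand) shares 38 exon bases with CD163L1. The exception is CD68 (ENSG00000129226; chr17:7579467-7582113, plus strand), of whose exon bases 81.7% also belong to AC016876.2 on the same strand.

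Bases before the start sites of the genes that rose are shown for CD86, CD14 and MNDA, which were called higher, by unequal amounts, and in whose windows matches to motifs of 2 myeloid transcription factors recur. VCAN was called higher too, and its window, which held no match, is not printed. RefSeq windows (GRCh38.p14) of the 250 bases before a start were found for 7 of the 9 genes, in 8 windows, since CD86 has 2 starts; MRC1 and CD300E had none. Both strands were searched for 5 motifs. GAGGAA is the core bound by PU.1, a master regulator of myeloid cells. TTNNGNAA is a form bound by the C/EBP factors of the same lineage. TGANTCA is the letters of AP-1, a factor induced by many stimuli. The general promoter element known as the TATA box was searched as TATAAA, and the E-box of basic helix-loop-helix factors as CACGTG. Capitals mark the matches, which may overlap each other. The windows printed below are the first CD86 window (chr3:122055112-122055361, plus strand) and the part of the MNDA window outside annotated exons (chr1:158831101-158831316, plus strand). Of CD14, whose window lies in exons of longer transcripts, 2 stretches of 30 bases are given (chr5:140633255-140633284 and chr5:140633190-140633219, minus strand), and a stretch of MNDA (chr1:158831307-158831336, plus strand) is set beside the second.
CD86: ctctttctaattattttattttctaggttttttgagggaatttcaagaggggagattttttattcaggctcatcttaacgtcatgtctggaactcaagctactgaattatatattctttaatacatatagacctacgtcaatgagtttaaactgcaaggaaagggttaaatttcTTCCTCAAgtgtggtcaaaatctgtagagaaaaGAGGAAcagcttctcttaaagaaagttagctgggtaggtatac
MNDA: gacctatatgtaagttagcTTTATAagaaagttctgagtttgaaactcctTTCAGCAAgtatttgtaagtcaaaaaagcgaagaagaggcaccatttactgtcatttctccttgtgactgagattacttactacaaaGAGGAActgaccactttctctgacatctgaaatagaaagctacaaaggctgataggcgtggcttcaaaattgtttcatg
CD14 distal stretch: gggggctggctcgGAGGAAgagaggtgggg
CD14 proximal stretch: acatcccaggaTTACATAAactgtcagagg
MNDA proximal stretch: ttgtttcatgaTTACATAActtctttctag

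GAGGAA or its complement stood in 6 of the 8 windows, against 23.6% of all 35116 RefSeq windows of the same length, and TTNNGNAA in 6, against 33.2%. Both stood together in 6 windows, against 8.38% of all. These shares were not matched for base composition. G and C made up 34.0% of the first CD86 window, 33.6% of that of CD163 and 36.0% of that of MNDA. They made up 54.8%, 51.6% and 56.0% of those of CD14, CD68 and FCN1. In the first CD86 window the only C/EBP match overlaps a PU.1 match. AP-1 letters were found in 2 windows, CD14 and CD68 (6.57% of all windows), TATAAA in 1, MNDA (10.72%), and CACGTG in none (6.34%). The 2 windows without any match were the VCAN window and the second start of CD86. CD163, with no count in any library, had a PU.1 core and 3 C/EBP matches, so the letters also stood before a gene with no count. The proximal stretches of CD14 and MNDA carry the same 8 letters, TTACATAA, at the same distance, -33 to -26 from the start. Among the 35116 windows 293 (0.834%) held these letters anywhere on either strand, and only those 2 held them at that place; this comparison was made after the match was seen. A match is a description of letters and was not tested as a binding site.

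**Figure D1:**
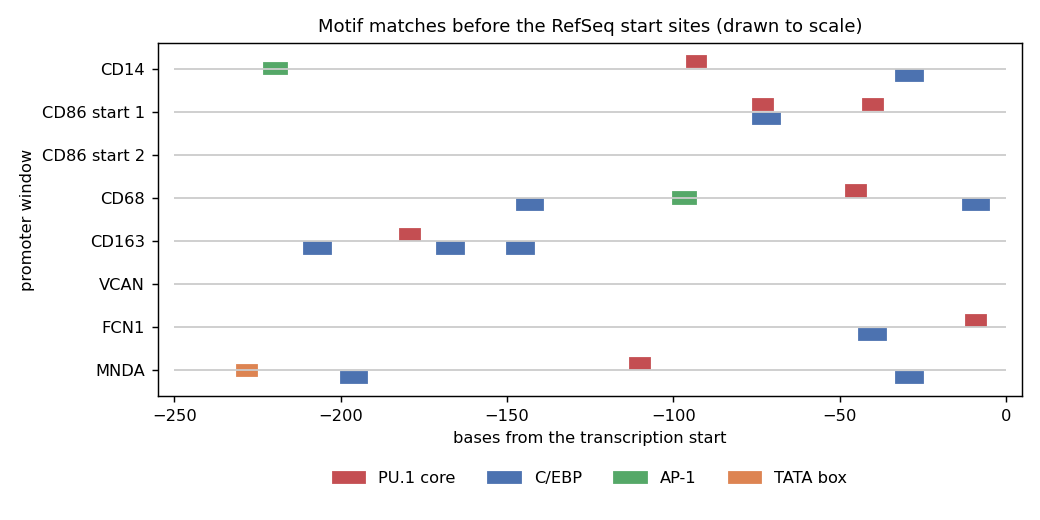
Matches to 4 motifs in the 250 bases before each RefSeq start (horizontal axis, bases from the start; 1 line per window; box width to scale, height offset only to separate overlapping boxes). PU.1 core and C/EBP matches stand together in 6 of 8 windows, and the VCAN window and the second CD86 window are empty.

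Of the 9 genes, 4 had enough counts to be tested, and CD86, CD14, VCAN and MNDA were each called higher with 8p. The filter asked for about 0.571 CPM in at least 3 libraries. CD86, VCAN and MNDA reached it in both groups, but CD14 reached it in 2 of 3 controls and in all 3 libraries with 8p, so it was admitted through the group where it is high, and the count of 4 is no support for a rise of the 9 as a whole. Across all 13822 genes tested, 37.9% were called higher and 74.7% were called in either direction, so most genes in these cells differed. The quasi-likelihood test of edgeR with Benjamini-Hochberg adjustment over all genes tested gave the calls, at an adjusted p under 0.05. The 3 values with 8p lay above the 3 control values for each of the 4 genes, as for 38.9% of all genes tested; for 77.0% the groups did not overlap in either direction. At least 2-fold rises were found for 3 of them, CD86, CD14 and VCAN, against 20.9% of all genes tested. This count too includes CD14, admitted through the group where it is high. The median log2 fold change over all genes tested was 0.03. The other 5 genes did not reach the filter on low counts: CD163 and MRC1 had no count in any library, CD300E had 1, CD68 had 11, all in controls, and FCN1 had 33, of which 31 were from 8p libraries.

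**Figure D2:**
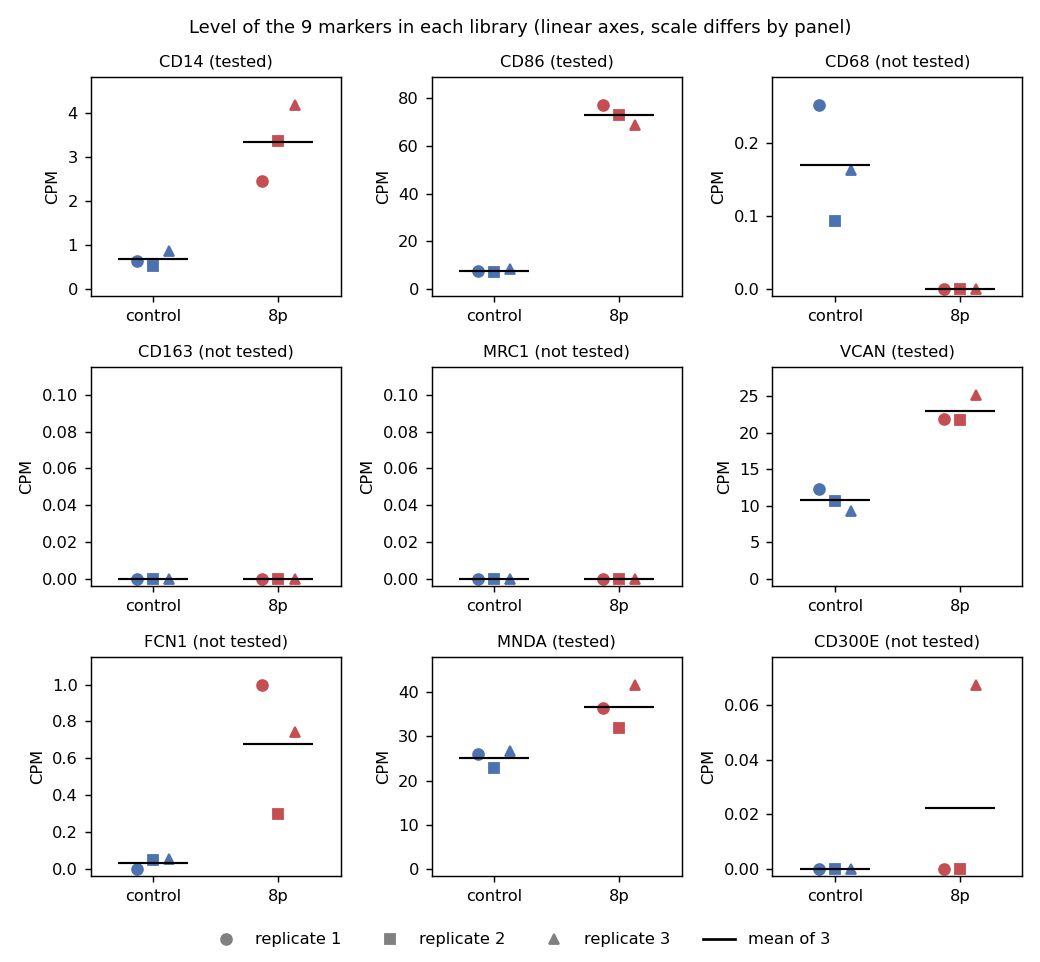
CPM of each of the 9 genes (vertical axes, linear, scaled per panel) in the control and 8p libraries, with 1 point per library, the shape giving the replicate and the line the mean of 3. CD86, CD14, VCAN and MNDA are higher in every 8p library than in any control, CD163 and MRC1 are at 0 throughout, and CD68 has counts in controls only.

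CD86, the costimulatory ligand, had 175, 151 and 152 counts in the 3 control libraries and 1161, 1220 and 1022 in the 3 with 8p, each in the order of the replicate numbers. In CPM these are 7.38, 7.06 and 8.27 in controls and 77.3, 73.1 and 68.9 with 8p. The groups were far apart and each was tight, with a coefficient of variation of 8.31% in controls and 5.69% with 8p, against medians of 8.46% and 10.2% over all genes tested. The log2 fold change was 3.27 (SE 0.10, edgeR adjusted p = 3.06e-13), a 9.68-fold rise that exceeded the log2 fold change of 97.8% of genes tested. Per kilobase of exon, CD86 moved from above 30.3% of tested protein-coding genes in controls to above 85.6% of them with 8p.

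CD14, the lipopolysaccharide coreceptor, was scarce in both groups. It had 15, 11 and 16 counts in controls and 37, 56 and 62 with 8p, or 0.632, 0.514 and 0.871 CPM against 2.46, 3.36 and 4.18 CPM. Every 8p library was higher than every control library, and the spread was wide, with coefficients of variation of 27.0% and 25.8%. The log2 fold change was 2.31 (SE 0.34, edgeR adjusted p = 1.92e-05), a 4.97-fold rise. Even with 8p, CD14 per kilobase stood above only 25.4% of tested protein-coding genes.

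VCAN, the gene of versican, had 291, 228 and 171 counts in controls and 329, 362 and 373 with 8p. In CPM these are 12.3, 10.65 and 9.30 in controls and 21.9, 21.7 and 25.2 with 8p. The groups did not overlap, and the log2 fold change was 1.09 (SE 0.13, edgeR adjusted p = 1.76e-06), a 2.12-fold rise. Its exons sum to 14831 bases, the longest of the 9, so that its level per kilobase was low, at 0.724 ± 0.100 CPM per kb in controls and 1.55 ± 0.131 with 8p (SD, n = 3).

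MNDA, the nuclear PYHIN protein of myeloid cells, had 617, 491 and 489 counts in controls and 548, 533 and 617 with 8p, numbers that look alike until depth is taken into account. In CPM it was at 26.01, 22.9 and 26.6 in controls and 36.5, 31.9 and 41.6 with 8p. The log2 fold change was 0.54 (SE 0.11, edgeR adjusted p = 3.15e-04), a 1.46-fold rise, above that of 67.7% of genes tested. When tested against a minimum fold of 1.5 in place of no change, MNDA was not called (edgeR adjusted p = 0.607), while the other 3 were, as were 23.4% of all genes tested in the upward direction.

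The mitochondrial share of counts moved with the groups. With mitochondrially encoded genes left out of the counts, the log2 fold changes were 3.27 for CD86, 2.30 for CD14, 1.08 for VCAN and 0.53 for MNDA.

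**Figure D3:**
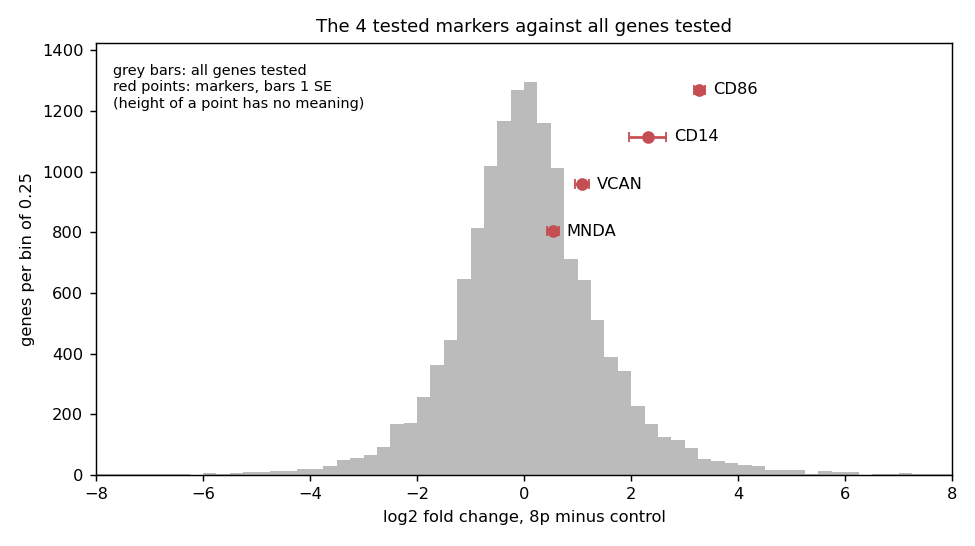
Log2 fold changes (horizontal axis, 8p minus control) of the 4 tested markers with bars of 1 SE, over the histogram of all 13822 genes tested (vertical axis, genes per bin of 0.25). CD86 and CD14 lie in the upper tail, at 3.27 and 2.31, and MNDA, at 0.54, lies inside the bulk of the distribution.

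FCN1, the M-ficolin gene, had 0, 1 and 1 counts in controls and 15, 5 and 11 with 8p. All 8p libraries were higher than all controls, at 0.300 to 0.998 CPM against at most 0.0544 CPM. The ratio of 8p to control was 21.1, with an exact 95% binomial interval of 5.38 to 182 that covers counting error only. Without control replicate 1 the ratio was 13.2. FCN1 did not reach the filter in the main analysis. In 4 of the alternatives that leave out a library it passed only through the 8p libraries where it is high, so its calls there are given no weight. Where no filter on the groups was applied, DESeq2 gave a log2 fold change of 4.33 (adjusted p = 0.00379) and edgeR gave 4.03 (adjusted p = 5.89e-04), with 20.3% of 26595 genes called higher by edgeR.

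CD68 went the other way, with 6, 2 and 3 counts in controls and none in any 8p library. With the 8p libraries together set at 3 counts, the floor, CD68 was at least 2.69-fold lower with 8p, and at least 1.72-fold lower without 8p replicate 2. The change did not pass in DESeq2 (adjusted p = 0.122) or in edgeR without a filter on low counts (adjusted p = 0.0590). Its exon bases are 81.7% shared with AC016876.2, a processed transcript on the same strand that itself held 0, 1 and 0 counts in controls and 2, 3 and 3 with 8p. How the authors' counting treated reads lying in 2 genes is not given in the sources read. Of the 598 protein-coding genes with at least 80% of exon bases shared with another gene on their strand, 548 (91.6%) had no more counts in all than CD68, against 35.1% of the 16526 with no shared base. The part of this overlap in the low count of CD68 was not tested, so the counts do not give the level of CD68 transcripts. The limit of 80% was set after the CD68 values were seen.

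The macrophage endocytic receptors CD163 and MRC1 were at 0 in all 6 libraries. No count among 110109471 allows a level of up to 0.0273 CPM for each over the 6 libraries, from 3 counts. CD300E had a single count, in 8p replicate 3, which is under the floor and gives no fold. Their exons share at most 38 bases with other genes, so the overlap described for CD68 does not extend to them.

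In controls the order per kilobase was MNDA at 12.2 ± 0.955, CD86 at 2.20 ± 0.183, VCAN at 0.724 ± 0.100 and CD14 at 0.356 ± 0.0963 CPM per kb (SD, n = 3), with no overlap between neighbours. With 8p, CD86 was at 21.3 ± 1.21 and MNDA at 17.8 ± 2.35 CPM per kb, and these 2 overlapped, since in 8p replicate 3 CD86 was at 20.1 and MNDA at 20.2. CD14 (1.77 ± 0.456) and VCAN (1.55 ± 0.131) overlapped as well with 8p. The summed level of the 9 genes went from 15.6 ± 1.2 to 42.6 ± 2.20 CPM per kb. Within that sum MNDA held 78.4% ± 0.229 in controls and 41.7% ± 3.50 with 8p, while CD86 held 14.1% ± 0.659 and 50.1% ± 4.27.

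**Figure D4:**
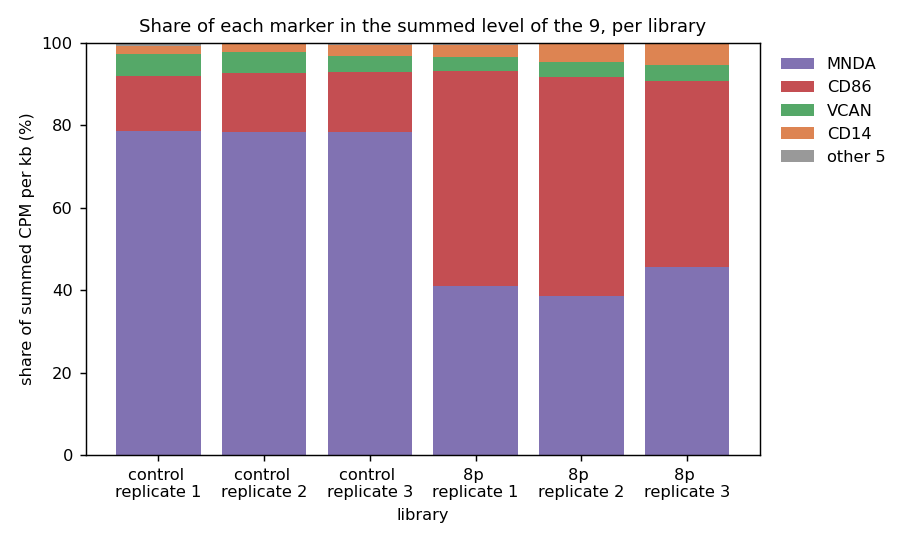
Share of each gene in the summed CPM per kilobase of the 9 (vertical axis, percent) in each of the 6 libraries. MNDA holds 78.2% to 78.7% in the controls and CD86 takes 45.3% to 53.1% with 8p; the other 5 genes are too low to see.

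Ratios between genes within a library do not depend on the scaling of libraries. The log2 ratio of CD86 to MNDA counts was −1.73 ± 0.0723 in controls and 1.00 ± 0.244 with 8p (SD, n = 3), a difference of 2.74. The ratio of CD86 to VCAN rose by 2.17, that of CD14 to MNDA by 1.77, CD14 to VCAN by 1.21, CD86 to CD14 by 0.96 and VCAN to MNDA by 0.56 on the log2 scale. The 3 values with 8p lay above the 3 of controls for each of the 6 pairs. The gene with the larger log2 fold change was put first in each pair, so the upward direction was set by that order. The 6 pairs are built from 4 genes and are not independent. Each two-sided exact permutation test gave p = 0.1 (adjusted p = 0.1 over 6 pairs), the smallest that 3 against 3 libraries allow.

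The protein-coding gene nearest to each tested marker was the 1 with the smallest root mean square distance of log2 CPM, centred on the gene's mean, over the 6 libraries and among 11499 genes. For CD86 it was TP53INP1, a p53-induced regulator of autophagy and cell death (7.70 ± 0.787 to 73.9 ± 4.66 CPM, distance 0.0346). For CD14 it was the kinase gene HIPK2 (2.19 ± 0.393 to 11.98 ± 2.83 CPM, distance 0.141). For VCAN it was SMARCE1, a chromatin remodelling subunit (4.41 ± 0.532 to 9.11 ± 0.644 CPM, distance 0.0371), and for MNDA it was MCEMP1, a membrane protein gene of myeloid cells (10.1 ± 1.02 to 14.4 ± 1.74 CPM, distance 0.0348). The 6 libraries fall into 2 groups, so likeness by this measure is largely likeness in the size of the change.

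Relatives and partners of the markers moved in both directions. The counts of each list below stand beside 37.9% of all genes tested called higher and 36.9% called lower, and shares near these say little about a list. Where a gene passed the filter through 1 group only, it is named and left out of the median. Of 8 genes that work with CD14 in lipopolysaccharide recognition 6 were tested and 5 rose, with a median log2 fold change of 0.66 beside 0.03 over all genes tested. LY96, the MD-2 subunit that binds lipopolysaccharide, went from 1.24 ± 0.372 to 7.38 ± 0.543 CPM (log2 fold change 2.58). TLR4 itself went from 24.7 ± 0.0702 to 39.1 ± 3.21 CPM (0.66), and the adaptor gene TIRAP rose by 1.37 on the log2 scale. LBP and TICAM2 had no count. TIRAP shares 12.5% and 9.997% of its exon bases with 2 genes on the other strand, AP001318.1 and AP001318.2, which held 0 and 129 counts beside its 400.

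Of 10 genes of the B7 family and related costimulation 4 were tested and 2 rose (median 0.42), beside 37.9% of all genes tested called higher. VSIR, which encodes the checkpoint protein VISTA of myeloid cells, went from 36.8 ± 3.80 to 315 ± 9.35 CPM (3.10), a change close in size to that of CD86. HHLA2 had a log2 fold change of 0.85 (edgeR adjusted p = 0.0156), and its call was lost under 5 alternatives, with adjusted p up to 0.0989. CD80, the B7 ligand that shares its receptors with CD86, was not tested, with 6 counts in controls and 1 with 8p. CD80 was looked up after the values were seen.

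Of 15 other scavenger and endocytic receptors 11 were tested, of which 6 rose and 3 fell, 9 of 11 called beside 74.7% of all genes tested. The 7 that passed the filter in both groups had a median of 0.47, with 4 higher and 1 lower; CLEC7A and CD209 passed through 8p libraries only, and PLA2R1 and MARCO through controls only. OLR1, the receptor for oxidized low-density lipoprotein, went from 2.29 ± 0.304 to 67.9 ± 2.79 CPM (4.90), CD36 from 13.1 ± 1.12 to 177 ± 0.835 CPM (3.76), and the beta-glucan receptor gene CLEC7A from 0.236 ± 0.0836 to 4.69 ± 0.721 CPM (4.27). MRC2 and CD163L1, paralogs of the 2 receptors with no count, were transcribed and did not pass in the main analysis. Other paralogs of MRC1 in the list were called, LY75 higher (0.61) and PLA2R1, admitted through controls only, lower (−2.18). MRC2, a paralog of MRC1, had 142 ± 5.31 CPM in controls and 137 ± 11.5 CPM with 8p (edgeR adjusted p = 0.585), and its sign turned with upper quartile scaling (0.14). CD163L1, the neighbour and paralog of CD163, had 2.57 ± 0.507 and 1.62 ± 0.814 CPM (edgeR adjusted p = 0.0970), and passed without a filter on low counts (−0.79, adjusted p = 0.0298) and without 8p replicate 1 (−1.13, adjusted p = 0.0135). These paralogs were picked after their values were seen.

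Of 9 genes of the CD300 family and its adaptors 7 were tested, of which 4 rose and 2 fell (median 0.58). Beside these stand 37.9% of all genes tested called higher and 36.9% called lower. The adaptor genes TYROBP (66.2 ± 1.67 to 364 ± 80.8 CPM, log2 fold change 2.46) and FCER1G (1.96 ± 0.605 to 10.9 ± 0.747 CPM, 2.47) rose, as did the inhibitory receptor gene CD300LF (17.5 ± 0.801 to 61.98 ± 5.26 CPM, 1.83). CD300A, another inhibitory member, fell from 33.0 ± 0.525 to 11.7 ± 2.01 CPM (−1.49), and CD300LD and CD300LG had no count. CD300A was named after its values were seen.

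Of 12 ficolins and early complement genes 4 were tested and 3 rose, of which MASP2 passed the filter through 8p libraries only (median of the other 3 tested, 1.74): CFP, which encodes properdin (4.97 ± 1.06 to 37.1 ± 3.00 CPM, 2.89), CFD, complement factor D (458 ± 42.5 to 1527 ± 270 CPM, 1.74), and the ficolin-associated protease gene MASP2 (0.593 ± 0.0710 to 5.85 ± 0.740 CPM, 3.28). Among all genes tested 37.9% were called higher. The ficolin genes FCN2 and FCN3 and the C1q genes C1QA, C1QB and C1QC had no count. In the PYHIN family IFI16, a DNA sensor and the only relative of MNDA with enough counts, rose from 4.15 ± 0.995 to 10.5 ± 2.13 CPM (1.34).

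Of 15 genes for lecticans and hyaluronan metabolism 4 were tested (median 0.35), of which 2 rose and 1 fell. Among all genes tested 37.9% were called higher and 36.9% lower. CD44, the hyaluronan receptor, went from 139 ± 3.36 to 294 ± 18.1 CPM (1.08), a rise like that of VCAN (1.09), while the hyaluronidase gene HYAL2 fell from 14.7 ± 0.656 to 4.66 ± 1.81 CPM (−1.65). HYAL2 shares 11.2% of its exon bases with TUSC2 on the same strand, which held 3869 counts beside the 1157 of HYAL2. Of the 4 LAMP genes, to which CD68 is related, 3 were tested (median 0.29): LAMP2 (0.88) and LAMP1 (0.29) rose and LAMP5 (−0.58) fell. The call of LAMP1 was lost without a filter on low counts (edgeR adjusted p = 0.0519).

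Of 16 classical monocyte genes 13 were tested. Leaving aside S100A12, which passed the filter through 8p libraries only, 9 of 12 rose and 1 fell, beside 37.9% and 36.9% of all genes tested, with a median of 1.62. LYZ, at 1040 ± 60.0 CPM in controls and 3732 ± 369 CPM with 8p, made up most of the summed level. The gene that fell was LST1 (log2 fold change −0.63). Both were named after their values were seen. The summed level of the list was 1786 to 1803 CPM in controls and 5120 to 5954 CPM with 8p. Among them S100A8, a subunit of calprotectin, went from 3.76 ± 0.625 to 60.5 ± 2.45 CPM (4.01), while CSF1R, through which M-CSF sustains monocytes and macrophages, was at 8.15 ± 1.00 CPM in controls and 120 ± 7.76 CPM with 8p (3.87). Of 9 genes of non-classical monocytes 6 were tested. Leaving aside CDKN1C, which passed through 8p libraries only, 4 of 5 rose, with a median of 0.97, led by CX3CR1 (3.63 ± 0.364 to 32.7 ± 3.99 CPM, 3.16) and MS4A7 (1.57). Of 11 tissue macrophage genes 5 were tested, but GPNMB and VSIG4 passed the filter through 8p libraries only. The remaining 3 rose, with APOE at 1.21 ± 0.0607 and 38.0 ± 7.82 CPM (4.96), APOC1 at 1.40 and TREM2 at 1.56 on the log2 scale. The other 6 macrophage genes, like CD163 and MRC1, had too few counts, with CD5L and SPP1 at 0. APOC1 shares 43.2% of its exon bases with AC011481.3 on the same strand, which held 5 counts.

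**Figure D5:**
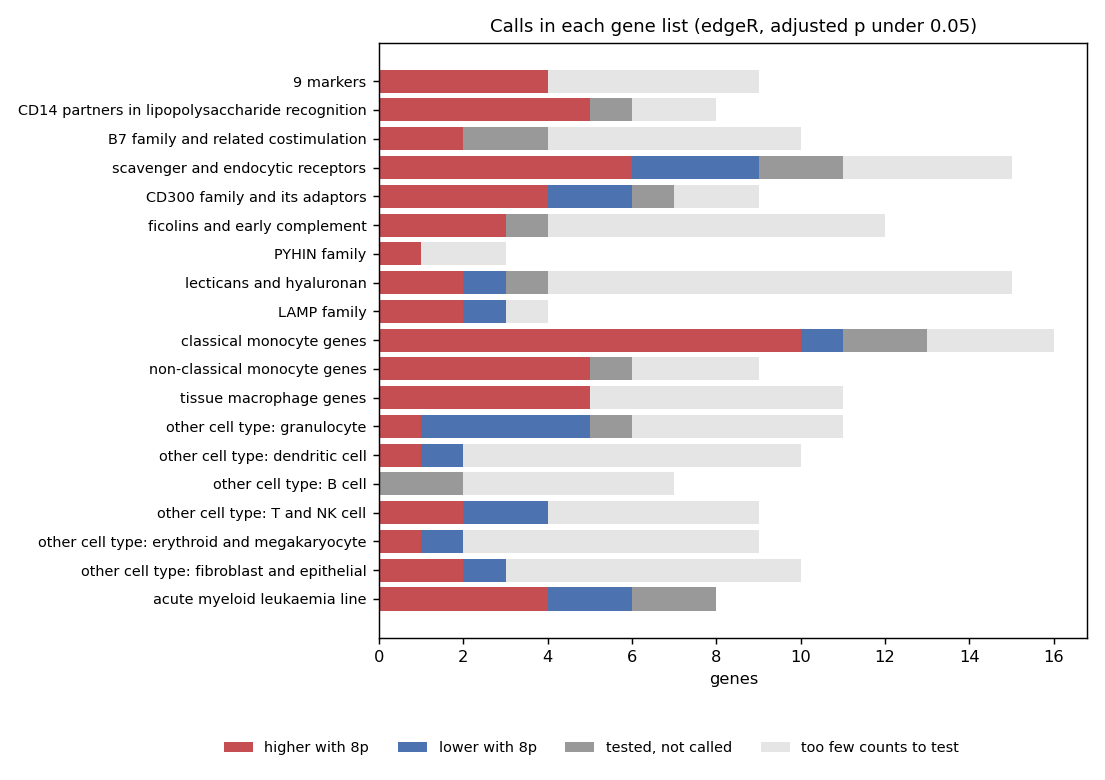
Number of genes (horizontal axis) called higher, called lower, tested but not called, or with too few counts to test in each list, genes that passed the filter through 1 group only included. The 9 markers, the B7, non-classical monocyte, tissue macrophage, complement, PYHIN and lipopolysaccharide lists hold no gene called lower. The B cell list, with none called, holds none either, and the PYHIN list rests on 1 tested gene. The granulocyte list holds 4 called lower.

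Markers of other cell types were listed as well. Apart from the granulocyte list, these lists rest on 2 to 4 tested genes, too few for a comparison with the monocyte lists. The counts of every list in this paragraph stand beside 37.9% of all genes tested called higher and 36.9% called lower. Of 11 granulocyte genes 6 were tested (median −0.35), of which 1 rose (CSF3R, 2.21) and 4 fell, beside 37.9% and 36.9% of all genes tested, among them PRTN3 (−0.93) and MPO (−0.64), and the list summed to 7014 to 7572 CPM in controls and 5567 to 5691 CPM with 8p. Of 10 dendritic cell genes 2 were tested, CCR7, higher and admitted through 8p libraries only, and BATF3, lower and admitted through controls only. The sum over all 10 was 1.58 to 2.11 CPM in controls and 19.1 to 22.3 CPM with 8p. With 8p nearly all of it was the chemokine receptor gene CCR7 (20.3 ± 1.60 CPM), while CD1A, CD1C and CLEC9A were at 0. Of 7 B cell genes 2 were tested and none was called, with sums of 1.64 to 1.69 and 1.86 to 2.29 CPM and with PAX5 and BLK at 0. Of 9 T and NK cell genes 4 were tested, 2 higher and 2 lower, with GNLY admitted through 8p libraries only and CD3D through controls only, with sums of 34.5 to 36.9 and 34.3 to 45.1 CPM and with CD8A and KLRD1 at 0. Of 9 erythroid and megakaryocyte genes 2 were tested, 1 higher and 1 lower, with sums of 26.1 to 28.3 and 14.8 to 16.6 CPM and with HBA1, HBB and PF4 at 0. Of 10 fibroblast and epithelial genes 3 were tested, 1 lower and 2 higher, COL1A1 and KRT8, both admitted through 8p libraries only, with sums of 10.3 to 10.9 and 31.9 to 42.6 CPM, mostly COL1A1 with 8p (31.8 ± 5.99 CPM), and with COL1A2, COL3A1, DCN, EPCAM and KRT19 at 0. The part of these in the rise of the 4 markers was not tested.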

How the data were processed

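The authors deposited raw counts, whole numbers per gene with totals that differ among the 6 libraries. Per the submitters' processing notes the build was hg38, and the tools were edgeR 3.22.5, DESeq2 1.20.0, HISAT2 2.0.5 and featureCounts 1.5.0-p3; no strand setting is given in the sources used. All 58735 gene identifiers, positions and lengths equalled those of GENCODE release 29. The protocol names poly(A) capture or removal of ribosomal RNA without saying which. Groups were taken from sample titles. Counts were analysed in R 4.3.3 with edgeR 4.0.16: filterByExpr, TMM, a quasi-likelihood F test with group as the only term over all 6 libraries, and Benjamini-Hochberg adjustment over 13822 genes tested, with calls at an adjusted p under 0.05. The SE is the log2 fold change divided by the square root of F. No spike-in was used here, so a fold change is relative to the rest of the RNA. Levels per kilobase divide CPM by the deposited exon length. Ratios for low counts carry exact 95% binomial intervals, and floors are 3 counts. A fold against a floor leaves out the counting error of the other group. Alternatives used DESeq2 1.42.0 and limma 3.58.1 (voom), other scalings and filters, a replicate block and leaving out each library. The pipeline was tested on simulated data. The 9 genes, the lists and the motifs were chosen with earlier results of these data known. Named genes were the 9 markers, RET, CDK8 and CDK19, the nearest profile of each tested marker, and, from each list, up to 3 called genes with the largest change, groups that did not overlap and a mean log2 CPM of 0 or more; overlapping genes, genes given only as having no count, and genes that passed the filter through 1 group only, are also named, and all others are marked as picked after their values were seen.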

Additional observations from a re-analysis of the deposited data

How the results depend on the processing

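Under the 17 alternatives CD86, CD14 and VCAN were called higher each time, with log2 fold changes of 3.16 to 3.46, 2.10 to 2.50 and 0.97 to 1.27. In the main analysis CD14 was admitted through the group where it is high, so its calls under filters on low counts are given no weight. MNDA was called in all but the test against a fold of 1.5, at 0.42 to 0.73. The number of the 9 genes called higher was 3 in that test, beside 23.4% of all genes tested, and 4 in the main analysis, beside 37.9%. It was 5 where FCN1 could be tested, beside 20.3% in edgeR without a low-count filter and 36.9% without 8p replicate 2. These counts include CD14 and, where a library was left out, FCN1, both admitted through 8p libraries. They are no support for a rise of the 9 as a whole. Leaving out 1 library at a time gave 4 or 5 of them, and 9871 to 10640 called genes in all. With the replicate number as a block 10090 genes and 4 of the 9 were called. The numbers pair no samples by label, and deviations of same-numbered libraries correlated at −0.0432 to −0.0071; none of the 6 libraries correlated best with its own number. Upper quartile scaling moved the median log2 fold change of all genes tested by 0.19 and omitting the low-count filter moved it by −0.12. Under these settings MNDA was at 0.73 and 0.42, beside 0.54 in the main analysis. CD86 was at 3.46 and 3.16, beside 3.27. With upper quartile scaling MRC2 turned from −0.05 to 0.14 (edgeR adjusted p = 0.0928), and CDK8, at −0.40 in the main analysis, was not called (−0.21, edgeR adjusted p = 0.0553). Other named genes that lost a call were GP1BA and KRT8, with adjusted p up to 0.163 and 0.102, and SPN, with 0.0826; the cause was not tested. Depth limits CD14, FCN1, CD68 and CD300E most, with at most 62 counts in any library.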

Other observations

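Some low or silent genes of the same lineage were also present in 8p libraries only or nearly so; they were picked after their values were seen. S100A12, a calcium-binding protein gene of classical monocytes, had no count in controls and 44, 20 and 44 counts with 8p, at least 49.1-fold higher with controls together set at 3 counts, the floor. The bound was 30.8-fold without control replicate 1, 32.6-fold without control replicate 2 and 42.7-fold to 62.4-fold without 1 of the 8p libraries. VSIG4, a complement receptor of tissue macrophages, had 4 counts in controls, all in replicate 3, and 34, 21 and 25 with 8p. The ratio of 8p to control was 27.3 (exact 95% interval 10.3 to 103), and 17.1 without control replicate 1 or 18.1 without control replicate 2; without control replicate 3 VSIG4 was at least 25.9-fold higher. VSIG4 passed the filter through 8p libraries only, so its test is not given.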
